A study of Mus musculus with 12 samples.

Results

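The sirtuin genes Sirt1 to Sirt7 were described in ChIP-seq peak lists of mouse liver. They were 7 of the 21853 protein-coding genes with an annotated transcription start site (TSS) in GENCODE mouse release 21 on GRCm38, the mm10 build of the lists. All 7 were taken by name and not by a measured value, though earlier results of these data were known. The series held 12 samples, 6 ChIP libraries and 6 control libraries, and gave 3 peak lists with 2 ChIP libraries each. LSD1 (lysine-specific demethylase 1, the product of Kdm1a) was precipitated from the liver of wild-type C57BL/6 mice. H3K4me2, dimethylated lysine 4 of histone H3, was precipitated from the liver of GFP control mice and of LSD1-LKO mice, both labeled C57BL/6. According to the methods, both of these groups carried LSD1 fl/fl alleles and received an adeno-associated virus at 6 to 7 weeks of age, which expressed GFP in controls and Cre in LSD1-LKO mice. The Tbg promoter that drove these vectors acts in hepatocytes, so other cells of the liver keep LSD1. The mice described there received a high-fat diet from 1 week after the injection, and tissues were taken 4 to 5 weeks later, though the account of the ChIP-seq itself names no diet and no age or feeding was given for the wild-type mice. Pooling of animals was not mentioned.

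Sirtuins are enzymes that use NAD+ to remove acetyl or longer acyl groups from lysine, and their activity therefore depends on the supply of NAD+. SIRT1, SIRT6 and SIRT7 act mainly in the nucleus, SIRT2 mainly in the cytosol, and SIRT3, SIRT4 and SIRT5 in mitochondria, although all are encoded in the nuclear genome. In the liver, SIRT1 deacetylates the coactivator PGC-1α, SIRT7 deacetylates GABPβ, SIRT3 is the main mitochondrial deacetylase, and SIRT5 removes succinyl and malonyl groups. LSD1 removes methyl groups from mono- and dimethylated H3K4, and H3K4me2 is a mark of promoters and enhancers. The comparisons asked where LSD1 was bound at the sirtuin genes and how their H3K4me2 peaks differed between control and LSD1-LKO liver.

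An entry of a list consists of 2 overlapping peaks, and the libraries they came from are called first-listed and second-listed in the order of the entry. A gene window was the gene body with 10 kb on either side, and a promoter reached 1 kb up- and downstream of every TSS of a coding transcript. The lists held 14584 LSD1, 43891 control H3K4me2 and 50675 LSD1-LKO H3K4me2 entries. They held no reads, so the depth of the libraries is unknown, and a peak found in only 1 library of a group was not listed. Median peak widths of the second-listed H3K4me2 libraries were 1161 bp (control) and 1240 bp (LSD1-LKO), against 648 and 565 bp in the first-listed ones. The targeted gene could not serve as a check of the deletion. Kdm1a had no LSD1 promoter peak in wild-type liver. It had a promoter H3K4me2 peak only in the LSD1-LKO list, covering 910 bp in the first-listed and 1805 bp in the second-listed library. Promoter H3K4me2 was listed in LSD1-LKO only for 3.18% of all protein-coding genes and in control only for 3.09%.

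LSD1 peaks lay at the promoters of 2 of the 7 members, Sirt1 and Sirt7, both nuclear. In the whole annotation 23.6% of protein-coding genes had an LSD1 promoter peak, and among genes with a promoter H3K4me2 peak in both lists, as all 7 members had, the share was 40.4%. The count of members was thus near the background. LSD1 promoter peaks were present at 2 of 3 nuclear members, at 0 of 3 mitochondrial members and not at the cytosolic member Sirt2. These are counts of genes in a single pair of libraries, and the difference between the compartments was not tested. Counted over the whole gene windows, 4 of 7 members had an LSD1 peak (Sirt1, Sirt3, Sirt5 and Sirt7), where 43.6% of all protein-coding genes did. The median window was of similar length, 38644 bp in members and 37380 bp in all genes.

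The Sirt1 peak was the strongest of the family. It lay at chr10:63338153-63339385, 1233 bp wide, from −350 to 882 bp of the RefSeq start of Sirt1, and its center fell in a coding exon. Its fold enrichment over the control library was 4.91 in the first-listed and 8.14 in the second-listed library, with −log10 p-values of 7.06 and 15.3. When all LSD1 peaks were ordered by −log10 p-value, averaged over the pair of libraries, it stood at percentile 98.72. Its 1233 bp were fully covered in the first-listed control H3K4me2 library and over 755 bp in the second-listed one. In LSD1-LKO, 722 bp were covered in the first-listed library and all 1233 bp in the second-listed one.

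The Sirt7 peak was narrower and weaker. It lay at chr11:120624812-120625203, 392 bp wide, from −189 to 202 bp of the RefSeq start. Its fold enrichment was 3.45 and 3.93, with −log10 p-values of 4.32 and 5.27, and it ranked at percentile 71.80. All 392 bp were covered by H3K4me2 in each of the 4 libraries. With a p-value at or below 1e-05 required in both libraries, the Sirt1 peak was listed and the Sirt7 peak was not.

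Promoter sequences of the 2 bound genes and, for contrast, of Sirt3, a mitochondrial member without an LSD1 promoter peak, are given 5′ to 3′ on the coding strand (RefSeq, GRCm38). All 3 are on the minus strand, and only bases outside annotated untranslated regions are shown. The Sirt1 stretch, chr10:63339051-63339285, runs from base −250 to base −16 of the RefSeq start and lies within the LSD1 peak of both libraries. Its capitals mark CACGTG, the E-box. The Sirt7 stretch, chr11:120625015-120625116, fills the 102 bases between the Sirt7 start and the 3′ end of Mafg, also within the LSD1 peak of both libraries, and its capitals mark the NRF1 letters. The Sirt3 stretch, chr7:140881870-140881967, covers the 98 bases upstream of the downstream Sirt3 RefSeq start and was covered by H3K4me2 in all 4 libraries. It holds none of the motifs searched, but the window of the upstream Sirt3 start holds GABP letters (−86 to −79).
Sirt1: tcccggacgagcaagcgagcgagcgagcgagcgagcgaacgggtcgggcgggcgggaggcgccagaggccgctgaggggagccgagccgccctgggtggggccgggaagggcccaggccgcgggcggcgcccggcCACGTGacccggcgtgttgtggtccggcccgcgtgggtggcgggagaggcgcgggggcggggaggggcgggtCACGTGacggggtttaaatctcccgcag
Sirt7: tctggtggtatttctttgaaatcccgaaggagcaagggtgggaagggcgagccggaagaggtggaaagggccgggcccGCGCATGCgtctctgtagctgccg
Sirt3: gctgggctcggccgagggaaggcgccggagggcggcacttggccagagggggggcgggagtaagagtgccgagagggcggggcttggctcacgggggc

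The Sirt1 promoter stood out in base composition. Its RefSeq window of 300 bases, from 250 before the start to 50 after it, held 47 CpG dinucleotides at a GC content of 79%, which placed it at percentile 98.1 of 20143 windows by CpG count. The windows of the other members held 15 to 24 CpG, against a median of 14 in all windows. The LSD1-bound Sirt7 promoter, with 17 CpG, was not set apart from the unbound members.

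Motifs of the factors NRF1 and GABP, which drive nuclear genes for mitochondrial proteins, were searched as exact letters on both strands. NRF1 letters (GCATGCGC) were present in 3.65% of all windows and in 2 of the 9 windows of the members. At Sirt7 they lay from −24 to −17 of the start, inside the LSD1 peak, and at Sirt6 they occurred on both strands in overlapping positions, from −143 to −134, in a promoter without an LSD1 peak. GABP letters (CCGGAAGT) were present in 5.35% of all windows and in 2 member windows, at Sirt3 (−86 to −79 of the upstream start) and Sirt6 (−36 to −29), both without an LSD1 promoter peak. ERR letters (TNAAGGTCA) were present in 1.04% of all windows and in none of the 9. The E-box, searched after the Sirt1 letters had been seen, occurred 2 times in the Sirt1 window and in no other member window, while 0.769% of all windows held 2 or more and 8.03% held at least 1. These matches describe letters and not binding sites.

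**Figure D1:**
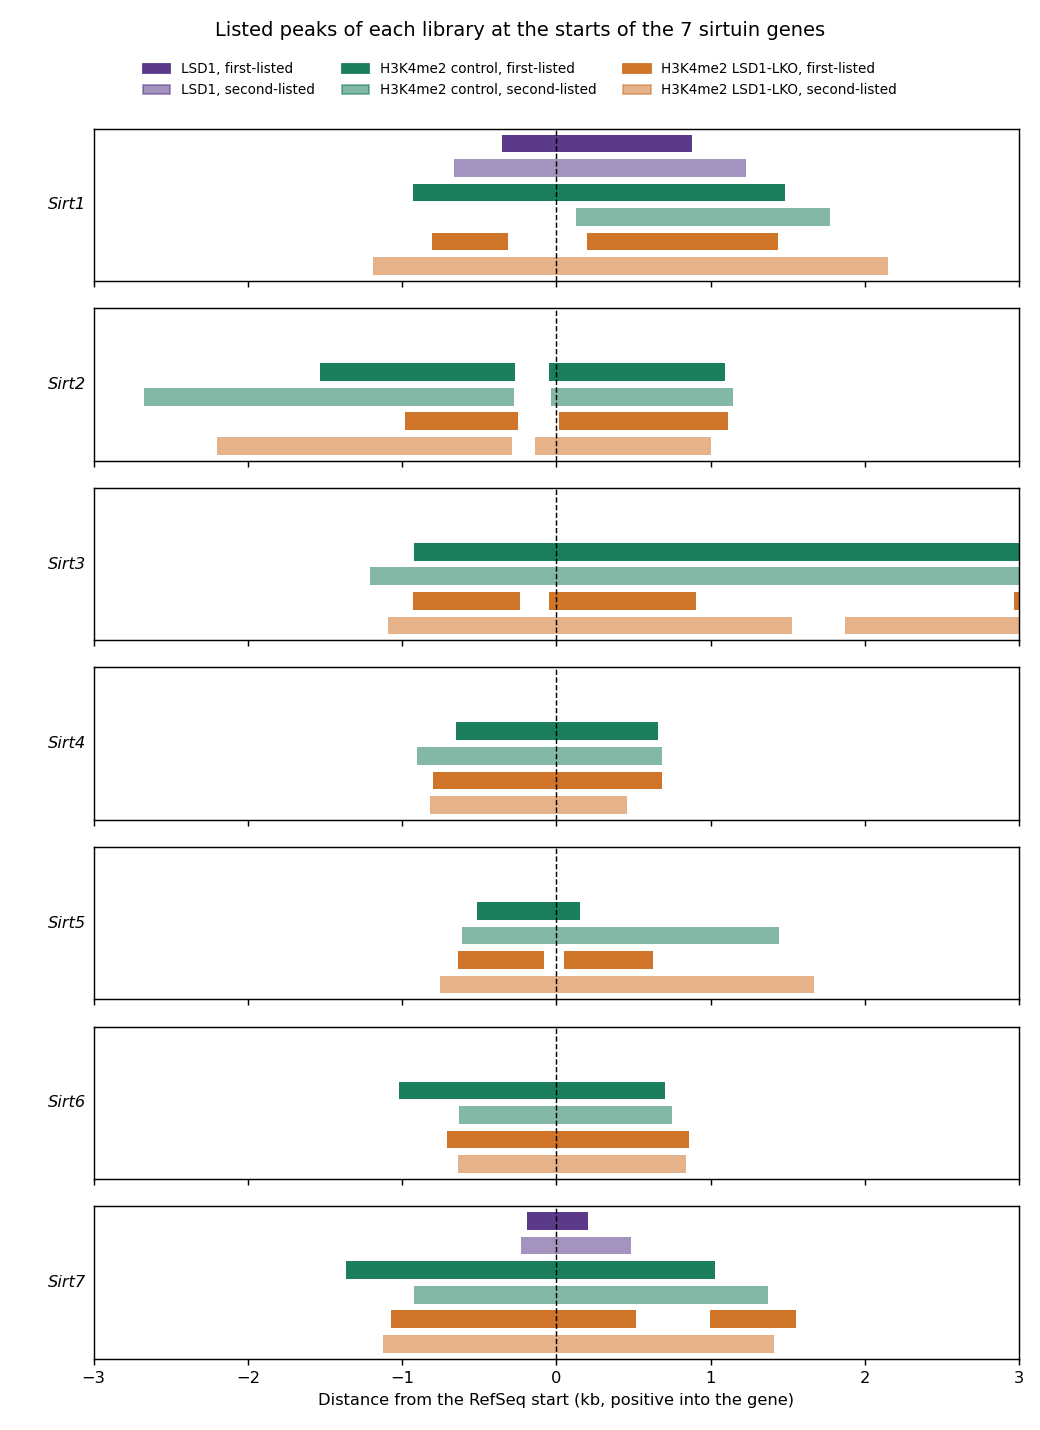
Listed peaks of each ChIP library within 3 kb of the RefSeq start of each sirtuin gene (x axis, kb; positive values run into the gene; the upstream of 2 starts for Sirt3 and Sirt6). Each bar is a peak, purple for LSD1, green for control H3K4me2 and orange for LSD1-LKO H3K4me2, darker for the first-listed library. LSD1 bars appear at Sirt1 and Sirt7 alone, whereas H3K4me2 bars of all 4 libraries are present at all 7 genes.

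The other 4 LSD1 peaks in the sirtuin windows lay away from the sirtuin promoters. In the Sirt7 window, a peak at chr11:120630609-120631674 (fold enrichment 2.67 and 3.50, percentile 60.20) lay at the promoter of Mafg, a small Maf transcription factor gene. In the Sirt3 window, a peak at chr7:140857058-140857384 (3.92 and 5.38, percentile 91.12) lay at the shared promoter region of Bet1l, a Golgi SNARE, and Ric8a, a G-protein chaperone. The Sirt3 window also held a weak peak at chr7:140891317-140891762 (2.35 and 2.96, percentile 22.68) in an intron of the proteasome subunit gene Psmd13, without H3K4me2 in either list. In the Sirt5 window, a peak at chr13:43398313-43398595 (4.98 and 4.63, percentile 92.53) lay at the promoter of Nol7, a nucleolar protein gene. No LSD1 peak was listed in the windows of Sirt2, Sirt4 or Sirt6. Of the 6 peaks, 2 were thus at a sirtuin promoter, 3 at a neighbor's promoter and 1 at neither. None of the window peaks of Sirt3 and Sirt5 lay at the member's own promoter.

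H3K4me2 marked the promoters of all 7 sirtuin genes in control and in LSD1-LKO liver. In the background, 58.8% of protein-coding genes had a promoter H3K4me2 peak in control and 58.9% in LSD1-LKO. No member was marked in only 1 list, as were 3.09% of all genes in control only and 3.18% in LSD1-LKO only. When a p-value at or below 1e-05 was required in both libraries, all 7 members kept a listed peak in LSD1-LKO, and 6 did so in control, where Sirt5 had none.

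The length of promoter covered by H3K4me2 peaks was the value that could be compared per library. The nuclear members came first. At Sirt1 the first- and second-listed control libraries had 3142 and 2247 bp covered, and the LSD1-LKO libraries had 2331 and 3404 bp. The groups overlapped, with the lowest value in a control and the highest in an LSD1-LKO library. The difference of the means, LSD1-LKO minus control, was 173 bp (exact permutation test, two-sided, p = 0.667, n = 2 per group). These lengths include a distant coding start of Sirt1 next to the promoter of Dnajc12. Around the RefSeq start alone, the control libraries had 1932 and 873 bp and the LSD1-LKO libraries 1297 and 2001 bp. The groups overlapped there too, with a difference of 246.5 bp. At Sirt6 the control libraries had 1726 and 1385 bp and the LSD1-LKO libraries 1572 and 1477 bp, with both LSD1-LKO values inside the control range. At Sirt7 the values were 2031 and 1954 bp for control and 1551 and 2031 bp for LSD1-LKO, so that only the first-listed LSD1-LKO library was below both controls.

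Sirt2 was the only member whose groups did not overlap in covered length. The control libraries had 1893 and 1925 bp and the LSD1-LKO libraries 1828 and 1869 bp. The mean difference, LSD1-LKO minus control, was −60.5 bp (exact permutation p = 0.333, n = 2 per group), beside 1909 bp ± 22.6 (SD) in control. Counted around the RefSeq start alone, the difference was 12.5 bp, in the other direction, and the groups overlapped.

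The mitochondrial members showed no shared direction. At Sirt3 the control libraries had 2437 and 2505 bp covered and the LSD1-LKO libraries 1805 and 2653 bp, so that the LSD1-LKO libraries lay on either side of both controls. At Sirt4 the values were 1314 and 1591 bp for control and 1484 and 1277 bp for LSD1-LKO. Sirt5 had the largest difference of the family under this promoter definition. The control libraries had 668 and 1762 bp and the LSD1-LKO libraries 1699 and 2303 bp, a difference of 786 bp in the means, and its first-listed control library had the lowest value of the family. With the RefSeq start alone the Sirt5 difference was 311 bp, and that of Sirt3, −359.5 bp, was larger in size. The groups overlapped at all 3 genes (exact permutation p of 1 for Sirt3 and 0.667 for Sirt4 and Sirt5, n = 2 per group).

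With 2 libraries per group the smallest p that the exact permutation test can give is 0.333, and all 7 Benjamini-Hochberg adjusted p-values were 1. The groups did not overlap for 1 of 7 members, against 31.8% of the 13553 genes with promoter H3K4me2 in either list. In the first-listed libraries alone, coverage was shorter in LSD1-LKO for 5 of 7 members, near the 60.1% of all marked genes, and the median difference was −154 bp for members and −111 bp for all. In the second-listed libraries it was shorter for 2 of 7 members, Sirt2 and Sirt4, and the median of all marked genes was 12 bp. The direction therefore depended on which library was taken, for the members as for all genes.

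**Figure D2:**
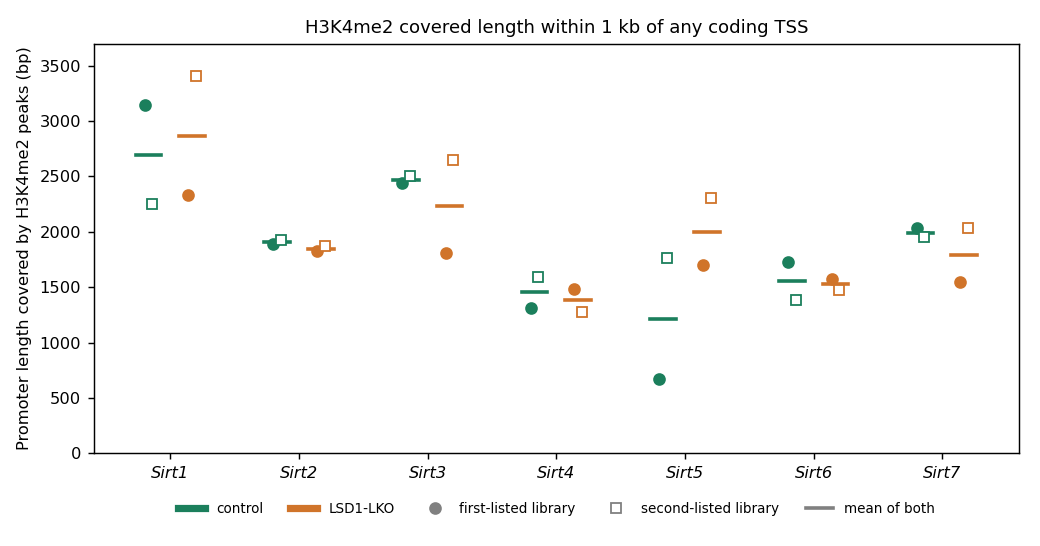
Promoter length covered by H3K4me2 peaks (y axis, bp) for each sirtuin gene in control (green) and LSD1-LKO (orange) liver. Circles are the first-listed and squares the second-listed libraries, and bars are the means of both. Control and LSD1-LKO values overlap at each gene but Sirt2, where all 4 values lie between 1828 and 1925 bp.

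The strength of the promoter peaks was compared as a rank, the percentile of the strongest peak at the RefSeq start among all peaks of the same library by −log10 p-value. Sirt4, which encodes a mitochondrial ADP-ribosyltransferase and deacylase, had the largest difference. Its peak stood at percentile 67.8 and 54.8 in the control libraries and at 89.0 and 94.7 in the LSD1-LKO libraries, so that both LSD1-LKO values were above both controls. The fold enrichment was 4.07 and 4.30 for control and 5.05 and 8.0 for LSD1-LKO. The mean rank was higher by 30.5 points (exact permutation p = 0.333, n = 2 per group), a difference at percentile 96.9 of the 9326 genes marked in both lists. The peak itself was of similar position, chr5:115483638-115484951 in control and chr5:115483614-115485097 in LSD1-LKO, so that the rank and the covered length did not move together at Sirt4.

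Sirt7 was the other member with separate groups, in the opposite direction. Its peak stood at percentile 83.8 and 97.9 in control and at 76.9 and 81.8 in LSD1-LKO. The difference in mean rank was −11.6 points (exact permutation p = 0.333, n = 2 per group), at percentile 18.6 of the differences of all genes. The fold enrichment was 5.12 and 10.1 for control and 3.57 and 5.82 for LSD1-LKO. Ranks did not overlap between the groups for 2 of 7 members, against 34.0% of all genes tested. This count was thus near the background as well.

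For the other members the ranks overlapped. Sirt1 stood at 96.0 and 81.7 in control and at 90.6 and 69.0 in LSD1-LKO. Sirt5 stood at 44.4 and 87.0 in control and at 80.8 and 88.4 in LSD1-LKO, and its low first-listed control library was the same one that had the shortest coverage. For Sirt2, Sirt3 and Sirt6 the control libraries differed from each other by more than the means of the groups did, with 69.8 and 91.0, 69.8 and 98.2, and 70.6 and 95.5 respectively. The LSD1-LKO libraries stood at 96.0 and 67.1 for Sirt2, at 95.4 and 90.9 for Sirt3 and at 91.6 and 90.2 for Sirt6. Of the 7 members, 5 had a higher mean rank in LSD1-LKO and 2, Sirt1 and Sirt7, had a lower one. A lower mean rank in LSD1-LKO was found for 48.8% of all genes marked in both lists, and for 50.4% of those that also had an LSD1 peak at the RefSeq promoter, as Sirt1 and Sirt7 did. Over all genes the median difference was 0.375 points, and 95% of the differences lay between −32.0 and 33.0, a range that held all 7 members.

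**Figure D3:**
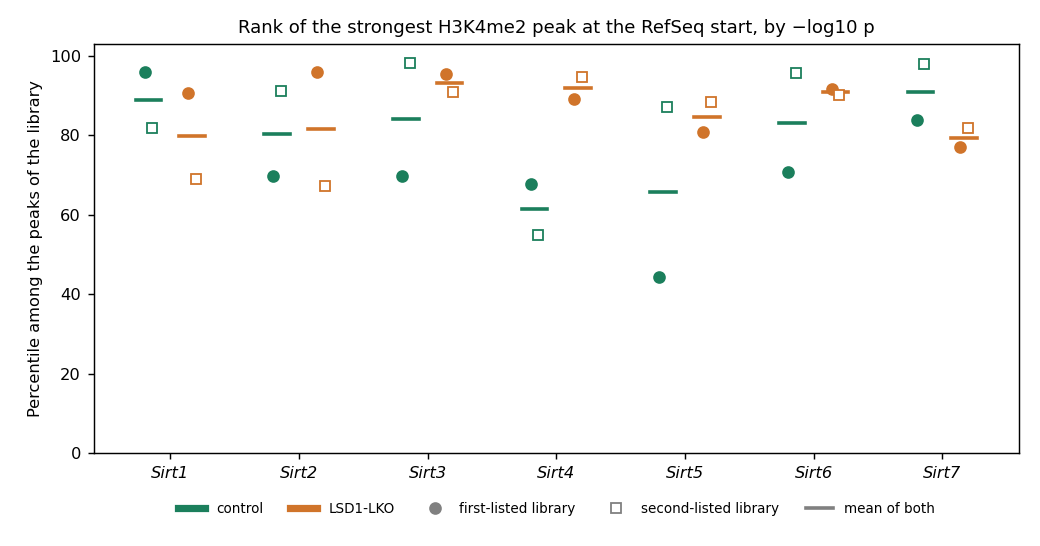
Percentile of the strongest H3K4me2 peak at the RefSeq start among all peaks of its library (y axis) for each sirtuin gene, with control in green and LSD1-LKO in orange. Circles are the first-listed and squares the second-listed libraries, and bars are the means of both. The groups are separate at Sirt4, which is higher in LSD1-LKO, and at Sirt7, which is lower.

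The shape of the marked region differed between lists at several starts. At Sirt1, which has a further annotated coding start near Dnajc12, the first-listed control peak ran across the RefSeq start (chr10:63337554-63339966). In the first-listed LSD1-LKO library there was a pair of peaks, chr10:63337597-63338836 and chr10:63339348-63339842, with an unmarked gap at the start where LSD1 was bound in wild-type liver. The second-listed libraries showed the reverse. The control peak (chr10:63337260-63338907) ended short of the start, and the LSD1-LKO peak (chr10:63336888-63340224) spanned it. The gap thus did not hold across libraries.

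At Sirt7 the control peak (chr11:120623983-120626379, fold enrichment 5.12 and 10.1) was also split in the first-listed LSD1-LKO library, into chr11:120623460-120624016 and chr11:120624497-120626087, and was continuous in the second-listed one. At Sirt3 the control list held a single peak of 4158 bp (chr7:140879076-140883233) across the start that it shares with Psmd13, whose TSS lies 155 bp away. The LSD1-LKO list held 3 peaks there, of 354, 956 and 690 bp in the first-listed library, and these were paired with 2 peaks of 1504 and 2621 bp in the second-listed one. The wider of these covered the starts without a gap. At Sirt5 the first-listed LSD1-LKO peaks lay on either side of the start, at −641 to −78 and 47 to 626, while the control peak of the first-listed library spanned −515 to 152. The second-listed LSD1-LKO peak (chr13:43364779-43367204) spanned the start without a gap. At Sirt2, which shares its promoter with Nfkbib, an inhibitor of NF-κB, peaks lay on either side of an unmarked stretch at or just upstream of the start in all 4 libraries. Sirt6 had a single peak across its start in each library.

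Counts of peaks followed this splitting. The 7 windows held 29 control and 36 LSD1-LKO H3K4me2 peaks, of which 9 and 15 were at the members' own promoters. The nuclear members had 17 and 18, Sirt2 had 3 and 3, and the mitochondrial members had 9 and 15. By the peaks of the second-listed libraries the nuclear members had 11 and 13, Sirt2 had 3 and 3, and the mitochondrial members had 8 and 11. In the Sirt7 window the control peaks numbered 10 in the first-listed and 4 in the second-listed library. The excess of the mitochondrial members came from Sirt3 and Sirt5. The Sirt3 window held 2 control and 6 LSD1-LKO peaks, yet the marked length was 6221 and 8808 bp in the control libraries and 5492 and 8649 bp in the LSD1-LKO libraries. The Sirt5 window held 2 and 5 peaks, over 1730 and 3490 bp for control and 2766 and 5156 bp for LSD1-LKO, including a peak at chr13:43369294-43370264 (fold enrichment 3.34 and 2.78, percentile 22.99) that was listed in LSD1-LKO only. This peak lay in an intron, with its center 931 bp from the start of another coding Sirt5 transcript, and so counted toward the covered promoter length above. Counts of peaks therefore do not stand for the amount of the mark.

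The Sirt7 window held 10 peaks in each list, and its marked length was lower in both LSD1-LKO libraries, with 11450 and 13522 bp for control against 8339 and 10811 bp. The same held for Sirt2, with 3816 and 5092 bp for control against 2831 and 3717 bp, and the other 5 windows overlapped. Over all genes with H3K4me2 in the window, the groups did not overlap in 33.8%, and LSD1-LKO was the lower one in 15.6%. Of the 10 control peaks in the Sirt7 window, 4 touched no first-listed LSD1-LKO peak, and the strongest of these lay over Mafg. A control peak at chr11:120628691-120630538 (fold enrichment 8.48 and 9.50, percentile 99.39) and a second at chr11:120630820-120631464 (4.89 and 9.50, percentile 93.97) did not touch any listed LSD1-LKO peak. The second of these lay wholly within the LSD1 peak at Mafg. Both had the same partner in the second-listed control library, a single peak of 6234 bp. Over all windows, 6 of 29 control peaks (20.7%) touched no first-listed LSD1-LKO peak and 3 of 36 LSD1-LKO peaks (8.33%) touched no first-listed control peak. Over all peaks the shares were 31.9% and 35.9%. As a second-listed peak that covers under 50% of the first-listed peak is not listed, absence from a list is not absence of the mark.

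**Figure D4:**
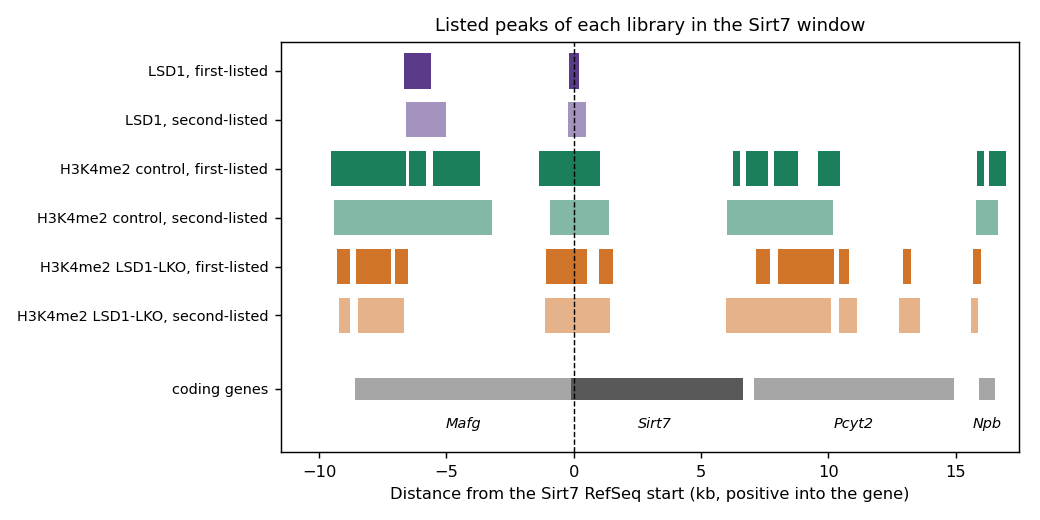
Listed peaks of each ChIP library in the Sirt7 window by distance from the Sirt7 RefSeq start (x axis, kb; positive values run into the gene), with the coding genes in gray at the bottom. Control H3K4me2 peaks over Mafg, upstream of Sirt7, include a stretch that has no listed counterpart in either LSD1-LKO library, and LSD1 peaks lie at the start of Sirt7 and within Mafg.

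Related enzymes and substrates were counted in the same way. For comparison, 23.6% of all protein-coding genes had an LSD1 promoter peak, as did 40.4% of those with promoter H3K4me2 in both lists. Promoter H3K4me2 was listed in control only for 3.09% of all genes and in LSD1-LKO only for 3.18%. Among the zinc-dependent deacetylases, the other large class of lysine deacetylases, 6 of 11 genes had an LSD1 promoter peak, among them Hdac5 (percentile 85.5), Hdac4 and Hdac10 (both 62.3) and Hdac1 (42.5). Promoter H3K4me2 was listed in LSD1-LKO only at Hdac7 and Hdac11. Among other NAD+-consuming enzymes it was 3 of 5, the DNA-damage responsive ADP-ribosyltransferases Parp1 (86.3) and Parp2 (80.4) and the NAD+ hydrolase Sarm1 (81.6). Among genes of NAD+ synthesis it was 3 of 18, namely Nmnat3 (79.6), which encodes the mitochondrial adenylyltransferase, Qprt (78.1), which forms nicotinic acid mononucleotide from quinolinate, and the mitochondrial NAD+ kinase gene Nadk2 (82.8). Tdo2, the first enzyme of tryptophan breakdown, had promoter H3K4me2 in control only.

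Among 8 genes for nuclear sirtuin substrates, 2 had an LSD1 promoter peak, the lipogenic factor gene Srebf1 (percentile 87.1) and Nr1h3 (31.9), which encodes LXRα. Among 12 genes for mitochondrial sirtuin substrates, 4 did, Ndufa9 (83.5) of complex I, Sdha (84.5) of complex II, the glutamate dehydrogenase gene Glud1 (79.8) and the malonyl-CoA decarboxylase gene Mlycd (81.2). The urea cycle genes Otc and Cps1 had promoter H3K4me2 in control only and in LSD1-LKO only, respectively. In the first-listed libraries coverage was shorter in LSD1-LKO for 6 of 10 marked zinc-dependent deacetylases, 12 of 16 genes of NAD+ synthesis, 1 of 3 other NAD+ consumers, 6 of 8 nuclear and 7 of 12 mitochondrial substrates, beside the 60.1% of all marked genes. The median differences were −25, −355.5, 303, −174 and −139 bp, in the same order, against −111 bp for all marked genes. These are first-listed values, and in the second-listed libraries the median of all marked genes was 12 bp. These lists are small and no difference between them was tested.

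**Figure D5:**
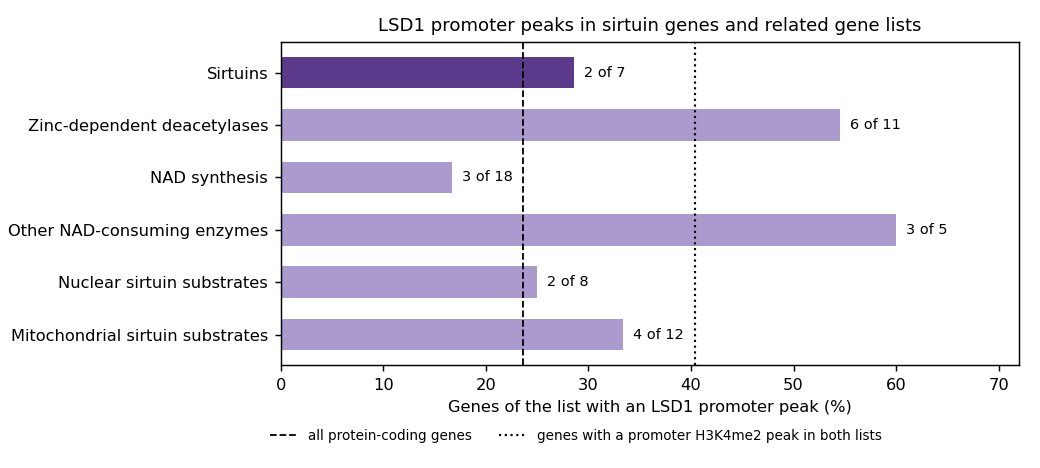
Share of genes with an LSD1 promoter peak (x axis, %) among the sirtuins (dark bar) and in 5 related gene lists, with the counts beside the bars. Dashed and dotted lines mark all protein-coding genes (23.6%) and those with a promoter H3K4me2 peak in both lists (40.4%). The sirtuins, with 2 of 7, lie between these lines.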

How the data were processed

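LSD1 ChIP-seq (2 libraries) and H3K4me2 ChIP-seq (2 control and 2 LSD1-LKO libraries) of mouse liver were used, each with control libraries that the labels call input and the methods call IgG. The authors mapped reads to mm10 with Bowtie 2, called narrow peaks in every library by MACS, and intersected the peaks of both libraries of a group with BEDtools 2.25.0 (version from the submitters' processing notes), without pooling. The deposited fold enrichment is a ratio of ChIP pileup to local background, and the deposited −log10 p-values and −log10 q-values are MACS output of the authors. The methods name a p-value of 0.01 for peak calling, but listed p-values reach 0.0500, and 1.80% to 9.97% of the peaks of a library are above 0.01. In the sirtuin windows this was so for 1 of 29 control H3K4me2 peaks, for 0 of 36 LSD1-LKO peaks and for 0 of 6 LSD1 peaks. Each pair overlaps by at least 50% of the first-listed peak. The lists hold no replicate numbers and no depth, and 12 columns of per-library values (integer scores and summit offsets) were not used. Peaks whose names contain the word picard, a duplicate-handling tool, were those of the first-listed H3K4me2 libraries only, so processing may have differed within each pair, and its part in the differences between libraries was not tested.

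Positions are those of the first-listed library unless stated, and 1 bp of overlap was counted. Fold enrichments are not comparable between libraries of unequal depth, so ranks were used. Covered lengths were compared by two-sided exact permutation tests over libraries, with Benjamini-Hochberg adjustment over the 7 members. The peak names carry a different number for each library of a pair, which may stand for animals, but the labels do not say so. If they do not, p-values measure only a spread between libraries that may be technical. The members, the gene lists and the motifs were chosen with earlier results of these data known. All 7 members were named, as were genes of the lists with an LSD1 promoter peak or with promoter H3K4me2 in a single H3K4me2 list (for lists with over 6 such genes, the 4 with the highest-ranking LSD1 peaks and the genes marked in a single list), and neighbors with a window peak within 1 kb of a TSS or a shared promoter. Psmd13 as the host of an intronic peak was named after its values were seen. Sequences were taken from RefSeq promoter windows (GRCm38.p6; all 7 members matched) and checked against the assembly. Interval functions were tested on simulated data. Calculations were run in Python 3.11.15, and figures were drawn with matplotlib 3.10.9. Promoter width, TSS choice, window width, peak threshold, overlap rule, merging and single libraries were varied, and RefSeq starts, ranks per library and the E-box were added after seeing the data.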

Additional observations from a re-analysis of the deposited data

How the results depend on the processing

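The count of members with promoter H3K4me2 (7 in both lists) was 6 or 7 under all alternatives run. LSD1 promoter peaks were found at Sirt1 and Sirt7 with promoters of 500 bp or 2 kb, with a stricter overlap and with RefSeq starts (chosen after seeing the data). They were found at 1 member with 1 TSS per gene, which takes the distant start of Sirt1, and at 1 member with p-values at or below 1e-05. The intervals of either library gave the same members. As every entry holds overlapping peaks of both libraries, this could hardly have differed. The 6 LSD1 window peaks became 3 with 5-kb flanks and 9 with 20-kb flanks, of which 2 lay in the Sirt6 window. They became 3 with the stricter p-value and 3 without peaks at neighbors' promoters. Control H3K4me2 window peaks went from 29 to 17 with the stricter p-value and to 16 without neighbors' promoters, and LSD1-LKO peaks from 36 to 17 and 21. The 5 members with longer coverage in control became 3 with the stricter p-value, and 2 to 5 with a library left out. Differences in covered length changed sign for Sirt1 with 1 TSS per gene (−73.5 bp), for Sirt2 with the stricter p-value (370.5 bp), 1 TSS per gene (4 bp) and RefSeq starts (12.5 bp), and for Sirt7 with 2-kb promoters (27 bp). Apart from the TSS and the threshold themselves the cause was not tested. No paired analysis was possible because the lists carry no replicate numbers. Depth is unknown, so a peak missing from a list may lie under the detection limit.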

Other observations

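Among the neighbors of the sirtuin genes, the promoter region of Bet1l and Ric8a in the Sirt3 window held the highest-ranking LSD1-LKO H3K4me2 peak of the windows, chr7:140856497-140858648, with a fold enrichment of 6.28 and 9.24 at percentile 99.19. It covered all 327 bp of the LSD1 peak found there in wild-type liver. In control, 181 bp of that LSD1 peak were covered in the first-listed library and all 327 bp in the second-listed one. The control peak of the same region, chr7:140855176-140857238, had a fold enrichment of 6.05 and 6.67 at percentile 91.17. At Nol7 in the Sirt5 window the control peak stood at percentile 46.20 (2.79 and 3.88), and the stronger of the LSD1-LKO peaks at 78.23 (3.69 and 7.16). Other neighbors went in both directions, with Rinl in the Sirt2 window at 33.67 in control and 15.93 in LSD1-LKO. Ankrd24 in the Sirt6 window stood at 42.88 and 62.25, respectively. At Mafg the highest-ranking control peak, at 99.39, touched no listed LSD1-LKO peak. All percentiles given here average both libraries of a list, and no difference between the lists was tested. Pcyt2, next to the 3′ end of Sirt7, encodes the rate-limiting enzyme of phosphatidylethanolamine synthesis and had no LSD1 peak in wild-type liver. Its highest-ranking control peak, at percentile 88.53 (7.09 and 5.89), had its center 116 bp from the TSS. The LSD1-LKO peak closest to that TSS stood at 90.1 (3.23 and 8.36). The highest-ranking LSD1-LKO peak, at 95.96, had its first-listed center 2047 bp from the TSS, and its first-listed interval did not touch that control peak. Both LSD1-LKO peaks had the same partner in the second-listed library, a single peak of 4154 bp. This partner covered all 885 bp of that control peak.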
